A study of Mus musculus with 10 samples.

Results

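Oxidative phosphorylation is carried out by 5 protein complexes of the inner mitochondrial membrane. The genes described here are the nuclear-encoded part of that machinery: every protein-coding gene in the count table whose symbol begins with Nduf, Uqcr, Atp5, Cox4, Cox5, Cox6, Cox7 or Cox8, together with Sdha, Sdhb, Sdhc, Sdhd and Cyc1. The rule is on names alone and found 94 of 21556 genes. They comprise 7 core and 29 accessory subunits of complex I, 8 complex I assembly factors, 4 subunits of complex II, 9 of complex III, 18 of complex IV, 16 of complex V (the ATP synthase) and 3 genes that carry a family name but sit outside these sets (Ndufa4l2, Cox7a2l and Atp5s). Ndufa4 was placed with complex IV, where its protein is now known to belong.

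Complex I takes electrons from NADH and complex II takes them from succinate. Both pass them to coenzyme Q, complex III moves them on to cytochrome c, and complex IV hands them to oxygen, while the proton gradient built on the way drives ATP synthesis by complex V. Regulatory T cells (Tregs), the Foxp3-expressing CD4 T cells that restrain immune responses, are known to rely on this route more than conventional effector T cells do.

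RNA was sequenced from Tregs of mice bearing a lymphangiogenic melanoma line, sorted by their red fluorescence (RFP). Tumor and lymph node (LN) were the 2 tissues sampled, and all mice were 10 weeks old. All groups carry the floxed MHC class II allele (MHCIIfl/fl in the controls, which lack Cre). In the other mice, labelled MHCIIdeltaProx-1, a Prox1-driven Cre deletes it in lymphatic endothelial cells, so the deletion is in cells around the Tregs and not in the Tregs. Control mice gave 3 libraries per tissue and MHCII-deleted mice gave 2. The labels do not say whether a library is 1 animal or a pool, so the p-values measure the spread between these libraries, which may be technical. The comparisons ask how lymphatic MHC class II affects Tregs in each tissue and how Tregs of the tumor differ from those of the LN.

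Total counts lay between 28539329 and 35736175 per library. Of the markers that define Tregs, all 8 listed (Foxp3, Il2ra, Ctla4, Ikzf2, Ikzf4, Tnfrsf18, Lrrc32 and Tnfrsf4) had counts in every group. Foxp3 lay at 580 to 747 CPM (the read count scaled to a common library size with TMM factors) in the LN libraries, at 646 to 817 CPM in the control tumor libraries and at 349 and 342 CPM in MHCII-deleted tumor libraries. With the deletion in tumors, all 8 Treg markers were called lower (edgeR, adjusted p under 0.05), beside 13.7% of all tested genes. Their median log2 fold change was -1.18. The sum of the 8 was 2864 to 3833 CPM in LN libraries and 9304 to 10174 CPM in control tumor libraries. It was 3894 and 4613 CPM in MHCII-deleted tumor libraries. These last libraries stood apart from all others in 2 further measures. The sum of 28 pan-T cell genes was 8012 and 9489 CPM there, against 18057 to 20885 CPM in the other 8 libraries. The sum of 12 melanoma marker genes was 19249 and 23543 CPM there, 4860 to 9472 CPM in control tumor libraries and 16.3 to 34.5 CPM in LN libraries, with all 12 melanoma markers detected in both tumor groups. Myeloid markers (12 genes) summed to 125 to 227 CPM in control and to 432 and 472 CPM in MHCII-deleted tumor libraries. This sum does not stand for each gene. With the deletion in tumors, 1 of 11 tested myeloid markers was higher and 0 lower (edgeR, adjusted p under 0.05). Their log2 fold changes ran from -0.39 to 2.88, with a median of 0.38. Stromal markers (7 genes) summed to 1.05 to 4.91 CPM in LN libraries, to 444, 4179 and 2545 CPM in control tumors and to 275 and 667 CPM in MHCII-deleted tumors. In such bulk libraries, fewer cells of a type and less RNA per cell cannot be told apart. The part of these differences in the results below was not tested.

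Of the 94 genes, 92 were expressed enough to be tested (13920 genes in all). The other 2, Cox7b2 and Cox8c, are testis-type isoforms of complex IV subunits and had a count of 0 in every library, where 3 counts would be 0.0809 to 0.107 CPM (counting error only). Of the tested genes, 53 averaged at least 100 CPM over the libraries, 81 at least 10 CPM, and 5 lay under 1 CPM. Per kilobase of transcript, the highest levels in LN Tregs of control mice were those of Atp5b (919 CPM per kb), which encodes the catalytic beta subunit of the ATP synthase, Atp5g3 (558), Cox4i1 (543), Atp5a1 (521) and Cox6a1 (469).

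Summed over the 94 genes, expression was lowest in the LN and highest in the tumor of MHCII-deleted mice. The sums were 13221, 13883 and 14983 CPM in LN control libraries and 13176 and 12910 CPM in LN libraries of MHCII-deleted mice. In the tumor they were 16666, 15854 and 18798 CPM in control libraries and 28239 and 21472 CPM in libraries of MHCII-deleted mice. Every tumor library lay above every LN library, and both MHCII-deleted tumor libraries lay above all others. The mean sum was 1.22 times the LN mean in control tumors (17106 ± 1520 against 14029 ± 890 CPM, SD, n = 3 each). In MHCII-deleted mice the ratio was 1.91 (24856 ± 4785 against 13043 ± 188 CPM, SD, n = 2 each). Without the 3 most abundant genes these ratios were 1.25 and 1.93.

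**Figure D1:**
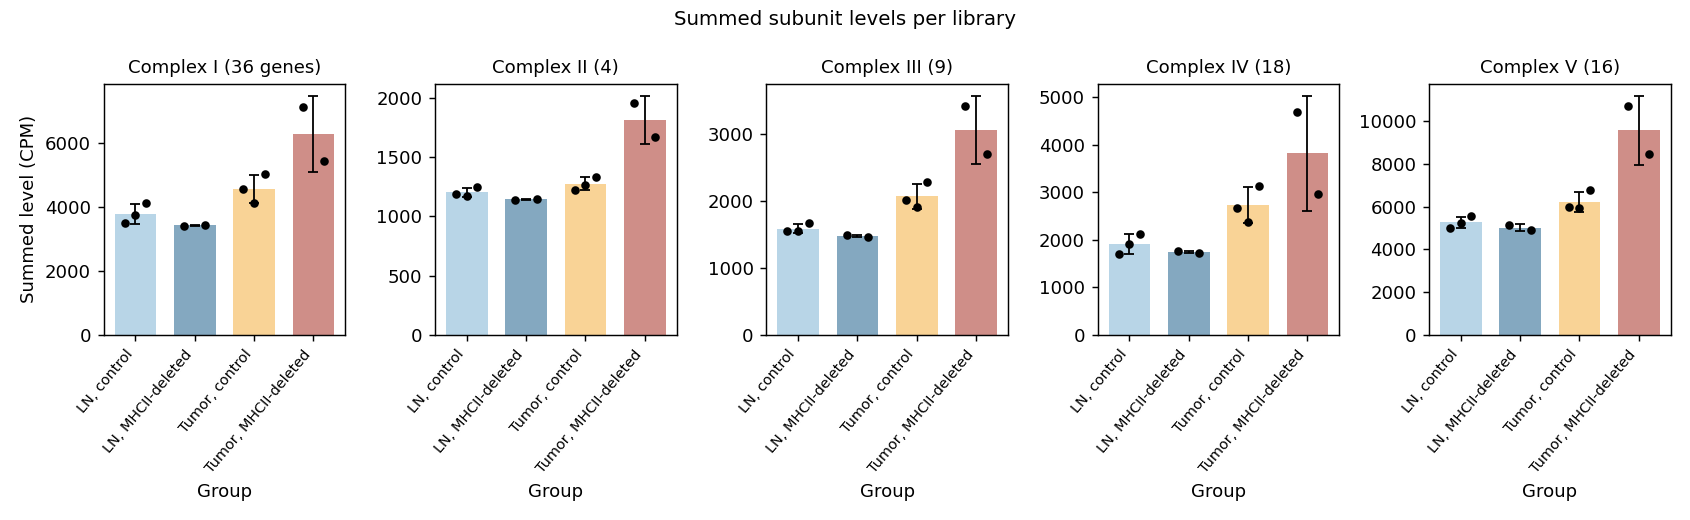
Summed level (CPM, linear axis from 0) of the subunits of each respiratory complex in the 4 groups; bars are group means, error bars are SD and points are single libraries (3, 2, 3 and 2). In all 5 complexes the MHCII-deleted tumor group has the highest mean, and its first library lies above its second; in complex IV the second (2961 CPM) lies below the highest control tumor library (3139 CPM).

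Genes were tested 1 by 1 with edgeR's quasi-likelihood test on all 13920 genes, and a gene was called at a Benjamini-Hochberg adjusted p under 0.05. In tumors, 44 of the 92 tested genes rose with the deletion of lymphatic MHC class II and 1 fell, while 15.0% of all tested genes were called higher and 13.7% lower. The median log2 fold change was 0.49 for the 92 genes and 0.10 for all tested genes, and 82 of the 92 values were above 0. In the LN, 0 genes of the 92 were called in either direction, where 1.07% of all genes were called higher and 0.0359% lower. Of the 92 genes, 0 reached an unadjusted p under 0.05 in the LN, beside 1298 of all 13920 tested genes. DESeq2 and limma-voom also called 0 of the 92. The LN median was nevertheless low, at -0.14 against 0.00 for all genes. Of the 92 values, 84 were below 0 and 7 above, beside 47.2% of all tested genes above 0. Libraries of 1 group could differ as much. Of the 92 genes, 23 were higher in the first than in the second LN control library. In the first against the third these were 9, and in the second against the third 14. The median log2 differences were -0.09, -0.23 and -0.12, and 45.5% to 47.7% of all tested genes were higher. Between the 2 LN libraries of MHCII-deleted mice, 49 of the 92 were higher in the first (median 0.01).

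Between the tissues, 29 of the 92 genes were higher in tumor than in LN Tregs of control mice and 1 was lower, beside 22.8% of all genes called higher and 16.1% lower. The median difference was 0.29 (log2) against 0.08 for all genes. Control tumor libraries also differed among themselves. Of the 92 genes, 72 were higher in the first than in the second (median 0.13). In the first against the third these were 18 (median -0.19), and in the second against the third 8 (median -0.32). Of all tested genes, 45.2%, 48.8% and 50.1% were higher in these pairs. In MHCII-deleted mice 68 were higher in the tumor and 1 lower, beside 24.3% and 20.1% of all genes, with a median of 0.88 against 0.07. These comparisons share their libraries pairwise, so their lists are not independent. The test of the difference between the 2 deletion effects (tumor minus LN) called 22 genes higher and 0 lower, beside 4.14% of all genes called higher and 6.57% lower, with a median of 0.62 against -0.01. At an unadjusted p under 0.05, 48 of the 92 genes passed this test, beside 3777 of all 13920 tested genes.

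**Figure D2:**
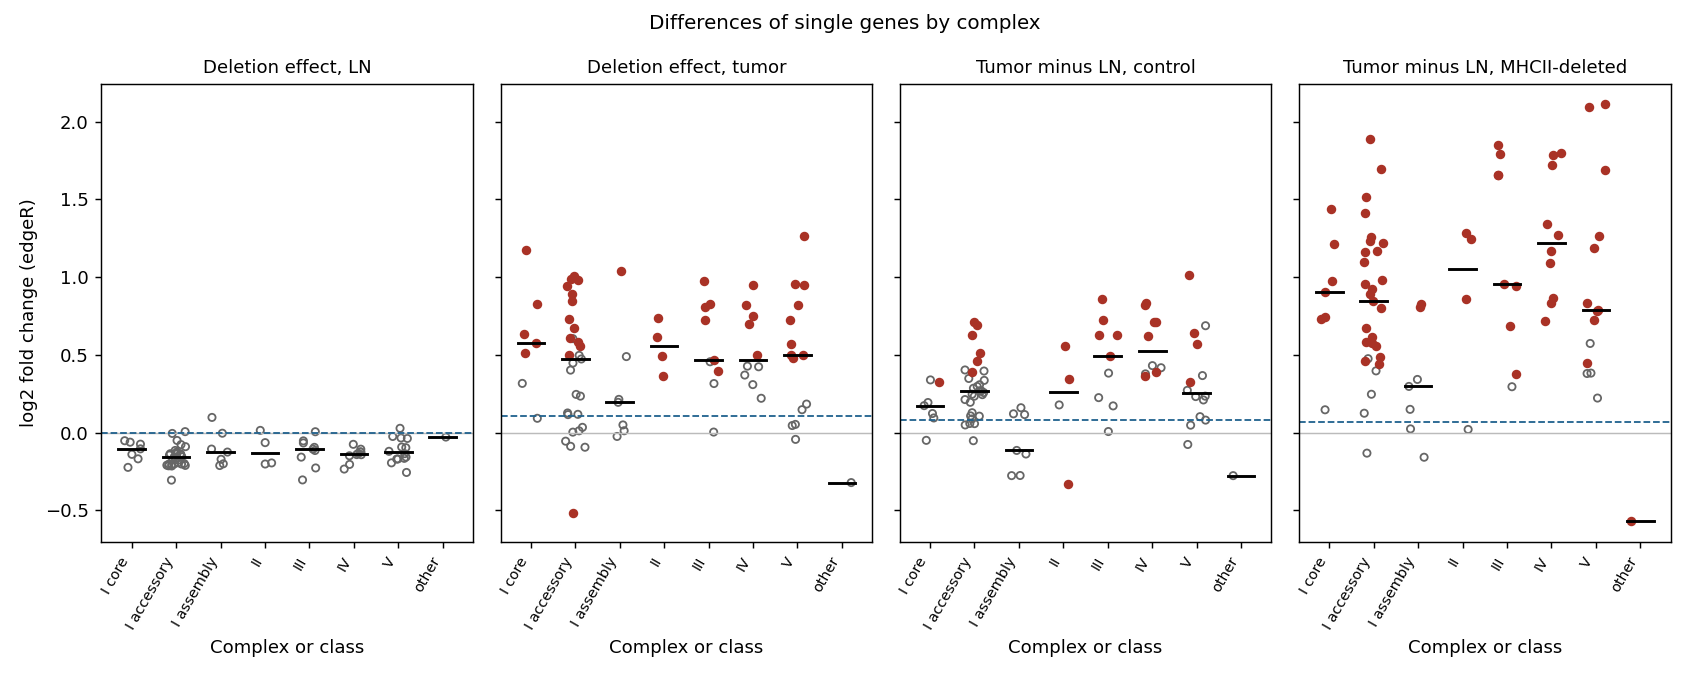
Log2 fold change (edgeR) of each gene with a mean of at least 10 CPM (81 genes), by complex or class, in 4 comparisons; filled red points were called at an adjusted p under 0.05, black bars are class medians and the dashed blue line is the median of all tested genes. Points lie just below 0 in the LN deletion panel, with no red point, and mostly above the dashed line in the other 3.

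The size of these counts and medians depended on single libraries and on the scaling. The 44 genes called higher in tumors were 14 when only the 5 tumor libraries were fitted. Calls higher over all genes went from 2092 to 1142 there. The median tumor deletion effect of 0.49 became 0.25 without the first MHCII-deleted tumor library and 0.70 without the second. For all tested genes it went from 0.10 to 0.04 and 0.01. Between these 2 libraries, 87 of the 92 genes were higher in the first (94.6%, against 51.5% of all tested genes), with a median difference of 0.48 (log2). The first and second of these libraries had melanoma sums of 19249 and 23543 CPM, pan-T cell sums of 8012 and 9489 CPM and values of 0.0858 and 0.333 (log2) of an index related to GC content, described with the LN results. The part of these measures in the difference was not tested. For control mice, the 29 genes higher in the tumor became 15 without the first LN library, 18 without the second and 16 without the third tumor library. Calls higher over all genes went from 3172 to 2552, 2546 and 2843 in these fits. The 22 genes of the interaction became 5 to 15 when any 1 of the LN libraries, of the first 2 control tumor libraries or the first MHCII-deleted tumor library was left out. They became 49 without the second MHCII-deleted tumor library. In every alternative tried, 14 of the 44 tumor deletion calls were made, among them those of Ndufs1, Ndufv1, Ndufa5, Ndufa9, Ndufa10, Ndufa12, Ndufb9, Sdhd, Cyc1, Ndufa4, Atp5a1, Atp5b and Atp5o. For the interaction these were 5 of 22 (Ndufs1, Ndufv1, Sdhd, Cyc1 and Atp5b).

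When libraries were scaled to the 28 pan-T cell genes in place of all genes, the median tumor deletion effect over all tested genes went from 0.10 to 1.19. It turned the calls over all genes from 2092 higher and 1907 lower into 9195 higher and 56 lower. The 92 genes were then called higher in 85 cases and lower in 0. Their median relative to that of all genes was 0.40 under this scaling and 0.39 under the standard one. Rescaling moves all genes by about the same amount, so this near-equality was built in and is no test of the result. In the tissue comparison of MHCII-deleted mice the median of all genes moved from 0.07 to 1.30 and the calls over all genes from 3383 higher and 2792 lower to 9087 and 306. In control mice it moved from 0.08 to 0.21 and the calls from 3172 and 2237 to 3531 and 1313. For the interaction it moved from -0.01 to 1.09 and the calls from 576 and 915 to 6274 and 20.

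**Figure D3:**
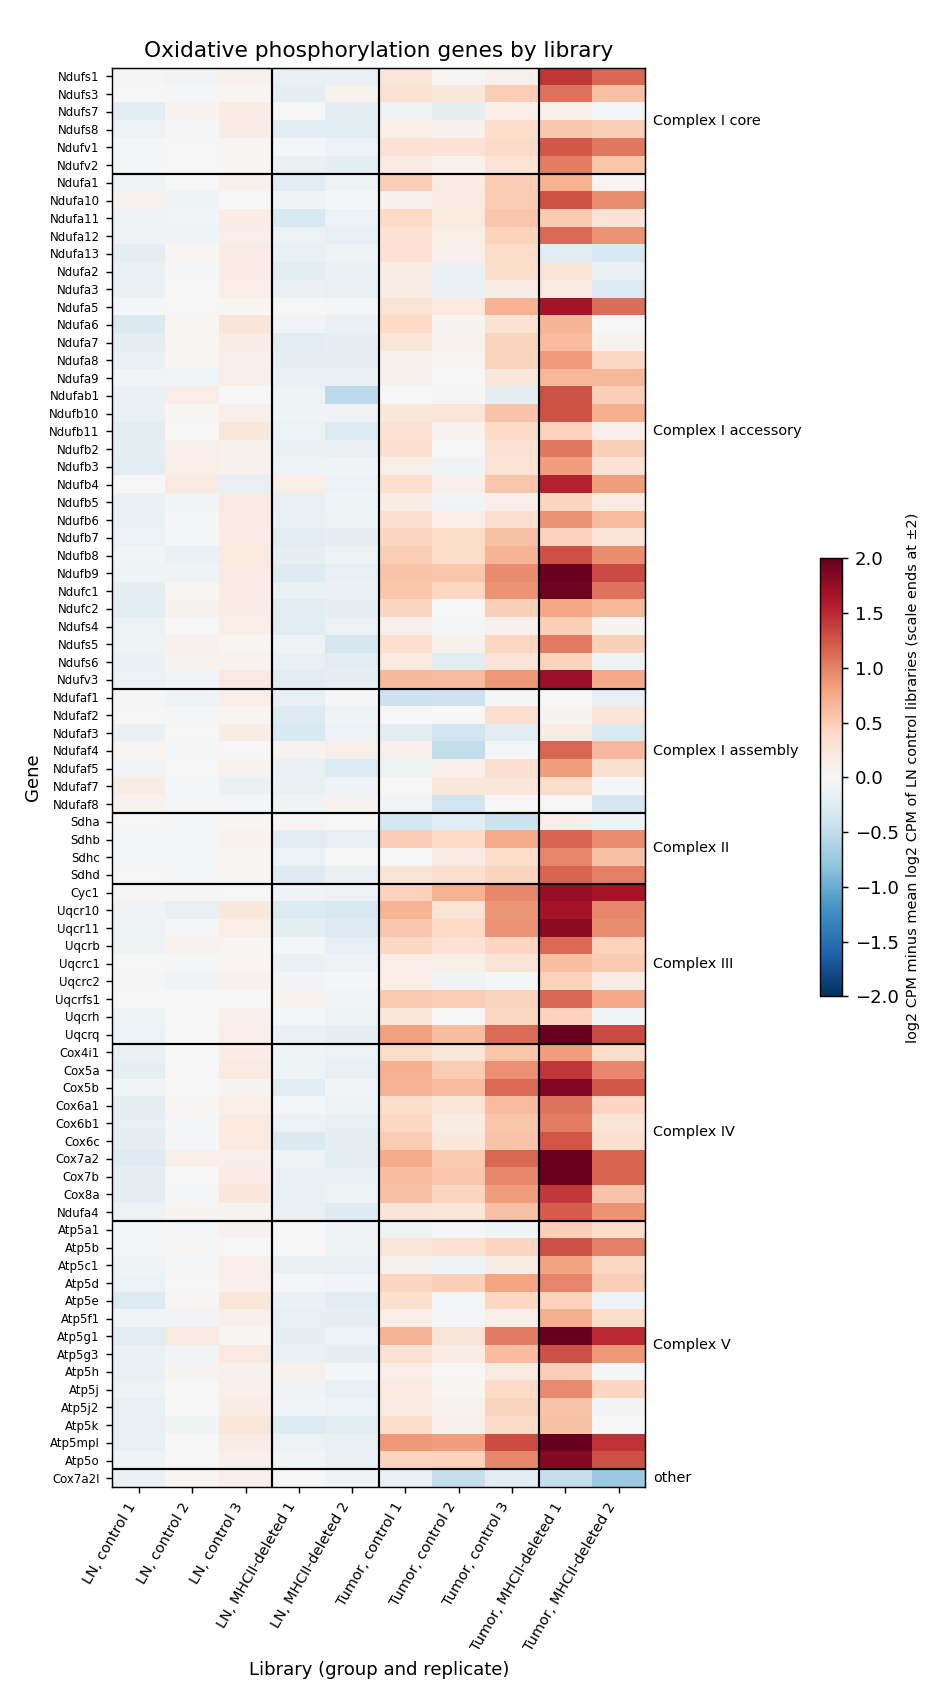
Log2 CPM of 80 genes with a mean of at least 10 CPM in each of the 10 libraries, relative to the mean log2 CPM of the 3 LN control libraries (colour scale ends at 2 in either direction); rows are genes grouped by complex or class and columns are libraries grouped by tissue and genotype. The 5 LN columns are near 0, the 3 control tumor columns are mixed, and the first MHCII-deleted tumor column is the reddest in every complex.

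Complex I, the entry point for NADH, rose in part of its core and accessory subunits with the deletion in tumors. Of the 7 core subunits, 5 rose (median 0.57), and of the 29 accessory subunits 12 rose and 1 fell (median 0.47). These counts stand beside 15.0% of all tested genes called higher and 13.7% lower. Ndufs1 encodes the largest iron-sulfur subunit of the core and had the largest tumor deletion effect among the core subunits. Its level was 126, 123 and 135 CPM in LN control libraries, 115 and 117 CPM in LN libraries of MHCII-deleted mice, 152, 130 and 136 CPM in control tumor libraries, and 345 and 284 CPM in MHCII-deleted tumor libraries. The last 2 libraries stood clear of the other 8, which overlapped between the tissues. The log2 fold change with the deletion in tumors was 1.18 ± 0.11 (SE, adjusted p = 0.000199), or 2.26-fold. The control tissue difference was 0.12 ± 0.10 (adjusted p = 0.369), and the 2 deletion effects differed by 1.32 ± 0.16 (adjusted p = 0.00375).

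Ndufv1, which holds the NADH binding site and the flavin, had a smaller effect. It was read at 157 to 164 CPM in LN control libraries, at 159 and 150 CPM in LN libraries of MHCII-deleted mice, at 197, 198 and 211 CPM in control tumors and at 382 and 334 CPM in MHCII-deleted tumors. The 4 groups were separate except for the 2 LN groups. The tumor deletion effect was 0.82 ± 0.09 (adjusted p = 0.000332) and the control tissue difference 0.33 ± 0.08 (adjusted p = 0.0121). Ndufv2 (0.63, adjusted p = 0.0063) of the core was called too, a call lost with only the tumor libraries (0.56, adjusted p = 0.0634). Ndufs3, another core subunit (0.51, adjusted p = 0.0394), was not called in 9 of the alternatives, with adjusted p from 0.0522 to 0.339. The highest was that without the first MHCII-deleted tumor library (0.25). Ndufs7 and Ndufs8 were not called, at 0.09 and 0.32.

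Among the accessory subunits, Ndufb9 and Ndufa5 had the largest increases in tumors. Ndufb9 was at 153, 155 and 181 CPM in LN control, 136 and 146 CPM in LN MHCII-deleted, 241, 236 and 312 CPM in control tumor and 639 and 404 CPM in MHCII-deleted tumor libraries. Its groups overlapped in no comparison between tumor and LN or within the tumor, and it rose with the deletion by 0.99 ± 0.19 (log2, adjusted p = 0.00434). It also rose from LN to tumor in control mice, by 0.69 ± 0.17 (adjusted p = 0.0106). A predicted gene shares 15.6% of its 50-base stretches, so that part of its reads may be split. Ndufa5 was at 49.3 to 52.4 CPM in all 5 LN libraries, at 61.4, 58.6 and 82.0 CPM in control tumors and at 161 and 110 CPM in MHCII-deleted tumors, a rise of 1.01 ± 0.18 with the deletion (adjusted p = 0.00327). Ndufa9, which sits near the junction of the 2 arms of the complex, was at 213, 200 and 233 CPM in control and at 317 and 318 CPM in MHCII-deleted tumors (0.56 ± 0.10, adjusted p = 0.00289).

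Ndufa13 went the other way. This accessory subunit, also known as GRIM-19, was at 254, 222 and 267 CPM in control tumors and at 177 and 169 CPM in MHCII-deleted tumors, with 181 to 232 CPM in the LN. The 2 tumor groups did not overlap, and it was the only gene of the 92 called lower with the deletion, at -0.52 ± 0.12 (adjusted p = 0.013). The call was lost with limma-voom (adjusted p = 0.0739), with a GC covariate (adjusted p = 0.132) and without the second MHCII-deleted tumor library (adjusted p = 0.0597), and under pan-T cell scaling the sign turned to 0.57. A kinase gene, Tssk6, and another gene share 28.5% of its 50-base stretches, so its level is uncertain. For several other accessory subunits the tumor deletion effect was near 0: Ndufa1 was at 0.00, Ndufa11 at 0.01, Ndufb11 at 0.03, Ndufa3 at -0.09 and Ndufb7 at -0.09 (log2, none called). Ndufb7 was nevertheless higher in tumor than in LN of control mice (0.46, adjusted p = 0.00668).

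The 8 complex I assembly factors, which help to build the complex but are not part of it, were described separately. In the tumor deletion comparison 1 of 8 rose (12.5%), beside 15.0% of all tested genes called higher, and the class median was 0.20. The gene was Ndufaf4, from 21.9, 14.5 and 19.9 CPM to 45.2 and 32.0 CPM (1.04 ± 0.21, adjusted p = 0.00631). This call was lost with only the tumor libraries (adjusted p = 0.0538) and without the first MHCII-deleted tumor library (adjusted p = 0.0545). In control mice 0 of 8 were called between tumor and LN (22.8% of all tested genes were called higher and 16.1% lower). The median of the 8 was -0.13, and 0 of them had an unadjusted p under 0.05. Those with the highest counts, Ndufaf3 and Ndufaf7, were at 34.4 ± 2.17 and 43.0 ± 3.71 CPM in control tumors (SD, n = 3) and at 39.9 ± 8.39 and 43.4 ± 8.59 CPM in MHCII-deleted tumors (SD, n = 2). Their log2 fold changes were 0.21 ± 0.17 and 0.01 ± 0.16. The summed level of the 8 assembly factors was 0.938 times the LN level in control tumors, whereas that of the 36 complex I subunits was 1.205 times. Whether assembly factors and subunits differ was not tested.

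Complex II couples the citric acid cycle to the respiratory chain. With the deletion in tumors all 4 of its subunits rose, beside 15.0% of all tested genes called higher. The catalytic flavoprotein of the complex, Sdha, was the 1 member lower in control tumors than in LN. Sdha was at 611, 602 and 636 CPM in LN control, 634 and 611 CPM in LN MHCII-deleted, 482, 530 and 460 CPM in control tumor and 678 and 584 CPM in MHCII-deleted tumor libraries. All control tumor libraries lay below all LN libraries, and the MHCII-deleted tumor libraries lay around the LN level. Sdha was the only gene of the 92 called lower in control tumors than in LN, at -0.33 ± 0.09 (adjusted p = 0.0134), and its tumor deletion effect was 0.36 ± 0.10 (adjusted p = 0.0193). The first call was lost under pan-T cell scaling, with the GC covariate and without the third LN control library. The second was lost with limma-voom, with only the tumor libraries, with a replicate block, without the third control tumor library and without the first MHCII-deleted tumor library (adjusted p = 0.05 to 0.155).

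Sdhd, a membrane anchor subunit, was at 189 to 195 CPM in LN control, 162 and 174 CPM in LN MHCII-deleted, 230, 243 and 263 CPM in control tumor and 431 and 386 CPM in MHCII-deleted tumor libraries. No 2 groups overlapped. It rose by 0.74 ± 0.09 with the deletion in tumors (adjusted p = 0.000641), by 0.35 ± 0.09 from LN to tumor in control mice (adjusted p = 0.0106), and its deletion effects differed by 0.94 ± 0.14 (adjusted p = 0.00501). Sdhb, the iron-sulfur subunit, rose from 281 ± 13.3 CPM in LN to 413 ± 50.8 CPM in tumor of control mice (SD, n = 3 each, 0.56 ± 0.11, adjusted p = 0.00261). It reached 582 ± 67.2 CPM (SD, n = 2) in MHCII-deleted tumors (0.49 ± 0.12 with the deletion, adjusted p = 0.012). Sdhc, the other anchor, was at 127 ± 16.3 CPM in control and 195 ± 37.8 CPM in MHCII-deleted tumors (0.62 ± 0.14, adjusted p = 0.00996). The tumor deletion calls of Sdhb and Sdhc were lost without the first MHCII-deleted tumor library (adjusted p = 0.0894 and 0.0868) and with only the tumor libraries fitted (adjusted p = 0.0964 and 0.0786).

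Many promoters of respiratory genes are known to hold sites for NRF1 and for ETS factors such as GABP. The promoters of 3 genes are shown. Sdhd and Ndufa5 rose with the deletion in tumors under every alternative. Sdha rose with it too, a call lost in some alternatives, and was lower in control tumor than in LN. Each line gives the 150 bases before the RefSeq start site (GRCm38.p6, minus strand, 5′ to 3′), at chr9:50603850-50603999 for Sdhd, chr6:24527691-24527840 for Ndufa5 and chr13:74350241-74350390 for Sdha. Capitals mark a match to the NRF1 letters GCGCANGCG or the ETS letters CCGGAAG on either strand.
Sdhd: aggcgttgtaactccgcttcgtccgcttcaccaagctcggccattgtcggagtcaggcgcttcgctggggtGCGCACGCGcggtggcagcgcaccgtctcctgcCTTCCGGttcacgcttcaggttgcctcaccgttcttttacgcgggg
Ndufa5: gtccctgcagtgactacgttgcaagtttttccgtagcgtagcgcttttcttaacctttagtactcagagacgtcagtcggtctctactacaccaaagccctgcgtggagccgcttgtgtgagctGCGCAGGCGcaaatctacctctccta
Sdha: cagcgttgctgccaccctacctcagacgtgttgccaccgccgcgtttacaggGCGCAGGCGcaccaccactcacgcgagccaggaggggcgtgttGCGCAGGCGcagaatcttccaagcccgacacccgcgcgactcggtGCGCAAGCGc
Sdhd holds an NRF1 match that begins at position -79 and an ETS match at -46 relative to the start site, Ndufa5 holds an NRF1 match at -26, and Sdha holds NRF1 matches at -98, -55 and -10. RefSeq promoters of 74 of the 94 genes could be matched, and 28.4% of them held the NRF1 letters within 250 bases before to 50 after the start, against 13% of 10821 tested genes with a promoter. The ETS letters were in 23.0% against 17.5%, and the YY1 letters AAGATGGCG in 9.46% against 2.98%. The ERR letters TCAAGGTCA were in 2.7% against 0.25%. Any of the 4 was held by 50.0% of the 74 promoters against 29.8%. The promoters of Ndufv1, Ndufa10, Ndufa12, Ndufa4 and Atp5b held none, though these genes also rose in tumors under every alternative. Both strands were searched, and these matches describe the letters only.

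Complex III, which carries electrons from coenzyme Q to cytochrome c, rose in 6 of 9 genes with the deletion in tumors (median 0.47). From LN to tumor in control mice it rose in 5 of 9 (median 0.49). Of all tested genes, 15.0% and 22.8% were called higher in these comparisons. Cyc1, the cytochrome c1 subunit, was at 183, 176 and 181 CPM in LN control, 171 and 165 CPM in LN MHCII-deleted, 246, 291 and 351 CPM in control tumor and 602 and 563 CPM in MHCII-deleted tumor libraries. The tumor libraries of each genotype lay above the LN libraries and apart from each other. Cyc1 rose by 0.98 ± 0.13 with the deletion (adjusted p = 0.000748), by 0.72 ± 0.12 from LN to tumor in control mice (adjusted p = 0.00114) and by 1.79 ± 0.15 in MHCII-deleted mice (adjusted p = 1.36e-05). The interaction was 1.07 ± 0.19 (adjusted p = 0.00939).

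Uqcrc1, a large structural subunit and the one with the highest counts of the complex, was at 615, 607 and 671 CPM in control and 851 and 808 CPM in MHCII-deleted tumors, against 511 to 575 CPM in the LN. It rose by 0.40 ± 0.08 with the deletion (adjusted p = 0.00599), a call lost when only the tumor libraries were fitted (adjusted p = 0.0891). Uqcrfs1, the Rieske iron-sulfur protein, was at 204, 199 and 193 CPM in control tumors, above 135 to 148 CPM in the LN, and at 312 and 238 CPM in MHCII-deleted tumors (0.47 ± 0.12, adjusted p = 0.0148). Uqcrq, a small subunit, had the largest control tissue difference of the complex (0.86 ± 0.18, adjusted p = 0.00387), from 111, 120 and 133 to 212, 186 and 262 CPM, and reached 479 and 302 CPM in MHCII-deleted tumors (0.83 ± 0.19, adjusted p = 0.0112). The tumor deletion calls of Uqcrfs1 and Uqcrq were lost without the first MHCII-deleted tumor library (adjusted p = 0.131 and 0.107) and with only the tumor libraries (adjusted p = 0.11 and 0.0701). The hinge protein gene Uqcrh, at 158 to 209 CPM in control and 217 and 151 CPM in MHCII-deleted tumors, overlapped between the groups (0.00 ± 0.16, adjusted p = 0.994).

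Complex IV is the cytochrome c oxidase. Of its 16 tested genes, 10 were higher in tumor than in LN of control mice (median 0.67), beside 22.8% of all genes. These 10 include Cox6a2 and Cox8b, which had few counts. With the deletion in tumors 6 of the 16 rose (median 0.56), beside 15.0% of all genes, and 1 (Ndufa4) was called in the interaction. In sum its genes were at 1.42 times the LN level in control tumors and at 2.19 times in MHCII-deleted tumors, the highest ratios of the 5 complexes. The tumor groups overlapped in this sum, at 2384 to 3139 CPM in control and 4678 and 2961 CPM in MHCII-deleted libraries. Whether complex IV differs from the other complexes was not tested.

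Cox5a, which with Cox4 forms an early assembly module, was at 150, 170 and 191 CPM in LN control, 160 and 152 CPM in LN MHCII-deleted, 278, 241 and 318 CPM in control tumor and 459 and 331 CPM in MHCII-deleted tumor libraries. All tumor libraries were above all LN libraries, and the second MHCII-deleted library was just above the third control. The control tissue difference was 0.71 ± 0.15 (adjusted p = 0.00438). The tumor deletion effect was 0.50 ± 0.16 (adjusted p = 0.045), and this call was lost in 11 alternatives, among them the omission of the first MHCII-deleted tumor library (0.25, adjusted p = 0.357). Cox4i1, the regulatory subunit, was at 372 to 460 CPM in the LN, at 535, 490 and 610 CPM in control tumors and at 738 and 532 CPM in MHCII-deleted tumors. It was higher in control tumors (0.39 ± 0.14, adjusted p = 0.0429, a call lost without any 1 of 6 libraries, among them the first LN control and the third control tumor library) and did not pass in the tumor deletion comparison (0.22 ± 0.15, adjusted p = 0.294). Cox8a, a small membrane subunit, was at 175, 193 and 230 CPM in LN and at 296, 268 and 355 CPM in tumors of control mice (0.62 ± 0.20, adjusted p = 0.0331). Its call was lost without LN control library 1 or 2 or control tumor library 1 or 3. Ndufa4 was at 215, 209 and 268 CPM in control and 417 and 333 CPM in MHCII-deleted tumors, against 150 to 187 CPM in LN, and rose with the deletion by 0.70 ± 0.14 (adjusted p = 0.00466).

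Several complex IV subunits exist as isoforms encoded by separate genes, one widespread and one typical of heart and skeletal muscle or other tissues. For COX4I, COX6A, COX7A and COX8 the widespread form had the higher count in every library. Cox7a2, the widespread form, was at 87.9, 116 and 115 CPM in LN control, 100 and 92.0 CPM in LN MHCII-deleted, 177, 152 and 234 CPM in control tumor and 425 and 236 CPM in MHCII-deleted tumor libraries. Its tumor libraries were above all LN libraries, and it was higher in control tumors by 0.82 ± 0.23 (adjusted p = 0.0171), a call lost without the first LN control or the third control tumor library. The muscle form Cox7a1 was at 0.189 to 0.668 CPM in the 5 LN libraries, at 2.75, 4.52 and 5.01 CPM in control tumors and at 23.9 and 6.86 CPM in MHCII-deleted tumors. It was higher in control tumors by 3.36 ± 0.62 (log2, adjusted p = 0.0022). It rose with the deletion by 1.91 ± 0.60 (adjusted p = 0.0393), a call lost in 10 alternatives. Without the first MHCII-deleted tumor library the value was 0.75 (adjusted p = 0.534).

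Cox6a1, the widespread COX6A form, was at 237 to 293 CPM in LN, 344, 315 and 413 CPM in control tumors and 564 and 359 CPM in MHCII-deleted tumors, and its tumor groups overlapped (0.37 ± 0.18, adjusted p = 0.157). Its muscle counterpart Cox6a2 was at or below 0.10 CPM in every LN library, at 0.611, 0.297 and 1.31 CPM in control tumors and at 0.740 and 4.23 CPM in MHCII-deleted tumors. It was called higher in both tissue comparisons (adjusted p = 0.0397 and 0.00842), but the first call was lost in 8 alternatives and the second without the first LN or the second tumor library of MHCII-deleted mice. Cox8b, another muscle form, had a count of 0 in all LN control libraries. It was at 0.397, 0.0330 and 0.781 CPM in control tumors, at least 13.5-fold higher than 3 counts over the LN control group (adjusted p = 0.0453, lost in 11 alternatives). Cox4i2, the lung form, was at 0.355 CPM or less in 9 libraries and at 0.571 CPM in the first MHCII-deleted tumor library, and was not called. The melanoma, myeloid, stromal and pan-T cell sums are those given above. The melanoma, myeloid and stromal sums were each higher in every tumor library than in every LN library. In control tumors the stromal sums were 444, 4179 and 2545 CPM, and the melanoma sums 4860, 5787 and 9472 CPM. The second of these libraries, with the highest stromal sum, had the lowest levels of Cox6a2 (0.297 CPM) and Cox8b (0.0330 CPM). The third, with the highest melanoma sum, had the highest levels of Cox6a2 (1.31 CPM) and Cox8b (0.781 CPM) of the control tumor libraries. The part of these sums was not tested.

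**Figure D4:**
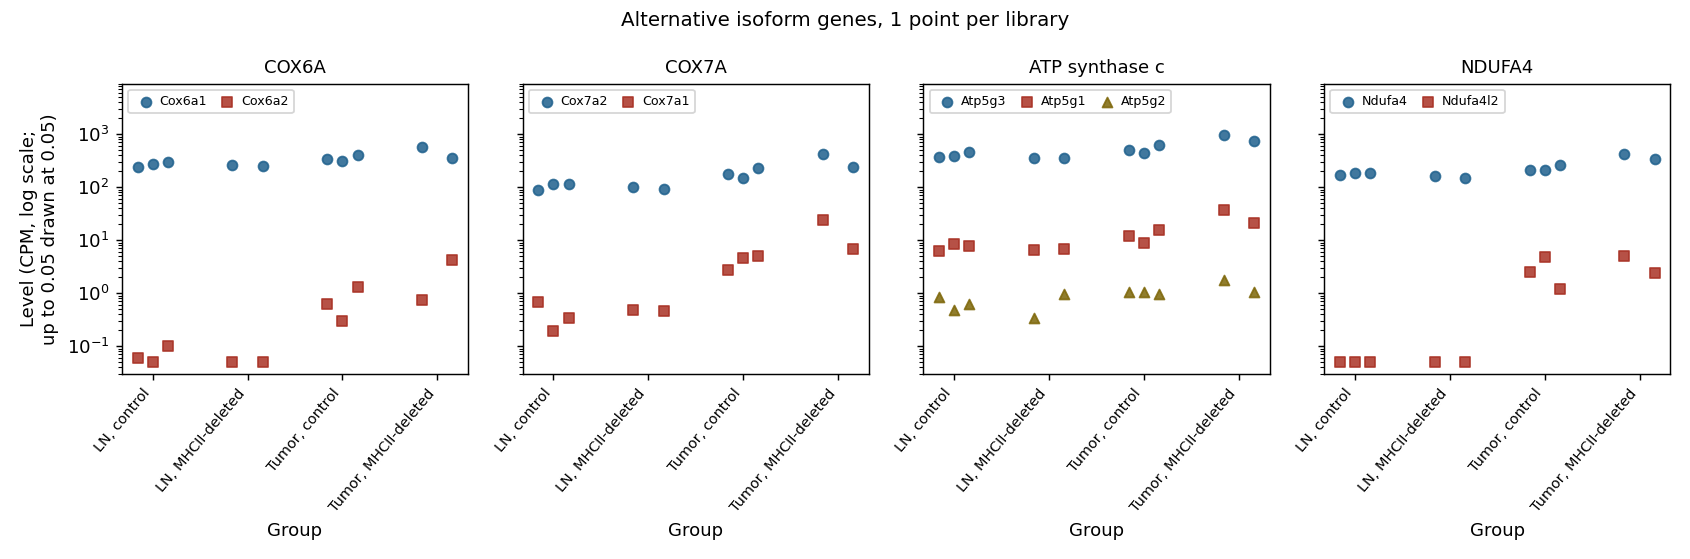
Level of isoform genes in every library (CPM, log scale, values up to 0.05 drawn at 0.05) for COX6A, COX7A, the c subunit of ATP synthase and NDUFA4, by group. The widespread genes (circles) lie near or above 100 CPM in all groups, whereas Cox7a1, Cox6a2 and Ndufa4l2 (squares) are near the bottom of the axis in LN libraries and higher in tumor libraries.

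Ndufa4l2, a paralog of Ndufa4 that is known as a target of hypoxia-inducible factors, had a count of 0 in all 5 LN libraries. It was at 2.53, 4.76 and 1.21 CPM in control tumors and at 5.04 and 2.4 CPM in MHCII-deleted tumors, so the tumor groups overlapped and the tissues did not. Relative to 3 counts over the LN group it was at least 94.4-fold higher in control tumors (adjusted p = 0.00158) and at least 82.3-fold higher in MHCII-deleted tumors (adjusted p = 0.00267). Cox7a2l, which joins complexes III and IV into supercomplexes, ran opposite to the majority. It was at 61.9 to 72.5 CPM in LN libraries, 61.0, 49.5 and 57.7 CPM in control tumors and 49.1 and 40.6 CPM in MHCII-deleted tumors. It was the only gene of the 92 called lower in the tumors of MHCII-deleted mice, at -0.57 ± 0.15 (adjusted p = 0.0136). The call was lost with only those 4 libraries, without the first LN or without the second tumor library of MHCII-deleted mice, and the sign turned to 0.68 under pan-T cell scaling. Atp5s, a protein linked to ATP synthase assembly, rose with the deletion from 6.36 ± 0.970 CPM (SD, n = 3) to 12.9 ± 3.18 CPM (SD, n = 2) in tumors (1.02 ± 0.33, adjusted p = 0.0416), a call lost in 12 alternatives, among them the omission of the first MHCII-deleted tumor library (0.74, adjusted p = 0.246).

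Complex V, the ATP synthase, rose in 9 of 16 genes with the deletion in tumors (median 0.49), beside 15.0% of all tested genes. From LN to tumor in control mice 4 of 16 were called higher (median 0.30), a share close to the 22.8% of all tested genes. In MHCII-deleted mice 10 of 16 were higher in the tumor (median 0.79), beside 24.3% of all tested genes. The catalytic beta subunit Atp5b, the most abundant gene of the 94, was at 1724, 1799 and 1760 CPM in LN control, 1776 and 1662 CPM in LN MHCII-deleted, 2080, 2178 and 2372 CPM in control tumor and 4290 and 3522 CPM in MHCII-deleted tumor libraries. The tumor groups were separate from each other and from the LN. It rose with the deletion by 0.82 ± 0.10 (adjusted p = 0.000426), and the deletion effects differed by 0.86 ± 0.14 (adjusted p = 0.00721). Its control tissue difference was 0.33 ± 0.09 (adjusted p = 0.0152) and was lost without the first LN control library (adjusted p = 0.054) or the third control tumor library (adjusted p = 0.0511). The alpha subunit Atp5a1, its partner in the catalytic head, was at 1197 to 1254 CPM in control tumors, overlapping the LN range of 1231 to 1359 CPM, and at 1798 and 1652 CPM in MHCII-deleted tumors. Atp5a1 rose with the deletion (0.50 ± 0.08, adjusted p = 0.00177) while its control tissue difference was -0.08 ± 0.07 (adjusted p = 0.423).

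The membrane ring of the ATP synthase is built from the c subunit, which 3 genes encode with the same mature protein. Atp5g3 had the highest level of the 3 per kb, and was at 367, 385 and 458 CPM in LN control, 362 and 354 CPM in LN MHCII-deleted, 497, 447 and 616 CPM in control tumor and 986 and 732 CPM in MHCII-deleted tumor libraries. It rose with the deletion by 0.72 ± 0.16 (adjusted p = 0.00952). Atp5g1 was at 6.31 to 8.42 CPM in LN, 11.8, 8.88 and 15.3 CPM in control tumors and 37.0 and 20.7 CPM in MHCII-deleted tumors (1.27 ± 0.31 with the deletion, adjusted p = 0.0135), and Atp5g2 was at 0.341 to 1.75 CPM throughout. The levels of Atp5g1 and Atp5g2 are uncertain because other genes share 11.1% and 38.3% of their 50-base stretches. The same holds for Atp5o of this complex, which was called in tumors under every alternative and shares 41.6%. Atp5mpl, a small membrane subunit, had the largest control tissue difference among the abundant genes of the complex, from 64.2, 72.6 and 80.6 CPM in LN to 132, 128 and 178 CPM in tumor (1.01 ± 0.22, adjusted p = 0.00478), and was at 366 and 197 CPM in MHCII-deleted tumors (0.95 ± 0.23 with the deletion, adjusted p = 0.0147). The tumor deletion calls of Atp5g1, Atp5g3 and Atp5mpl were lost without the first MHCII-deleted tumor library (adjusted p = 0.141, 0.0814 and 0.157) and with only the tumor libraries (adjusted p = 0.0621, 0.0592 and 0.0784). Atp5e, Atp5h, Atp5j2 and Atp5k lay between -0.04 and 0.15 in the tumor deletion comparison and were not called.

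In the LN, all 5 complexes had slightly lower mean sums in MHCII-deleted mice. These were 0.903 times the control for complex I subunits, 0.950 for complex II, 0.927 for complex III, 0.911 for complex IV and 0.952 for complex V. The class medians of the log2 fold changes lay between -0.16 for the accessory subunits of complex I and -0.03 for the 3 genes outside the complexes. The 2 LN groups also differed in a measure related to GC content. An index of how strongly each library shows genes with a GC-rich stretch ran from -0.245 to -0.178 (log2) in LN control libraries and was 0.142 and 0.0819 in LN MHCII-deleted libraries, while 22.8% of the 92 genes have such a stretch against 45.3% of all tested genes. With this index as a covariate, an alternative chosen after the data had been seen, the LN median turned to 0.32, still with 0 genes called. In the LN, this index and the deletion cannot be told apart, since the index separates the 2 groups. The same limit holds for the deletion in tumors, with an index of -0.0547 to 0.0236 in control and 0.0858 and 0.333 in MHCII-deleted libraries. It holds as well for the tissues in control mice. With the covariate, the medians of these 2 comparisons were 0.75 and 0.55.

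**Figure D5:**
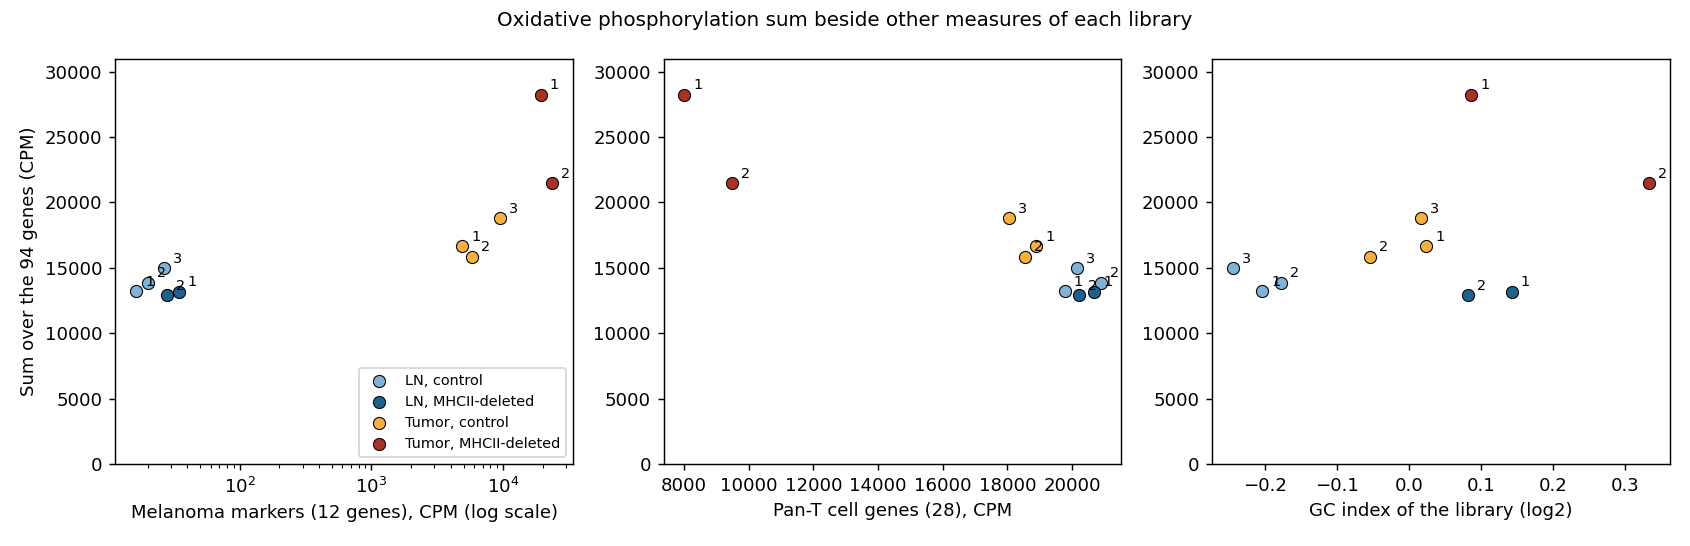
Sum of the 94 genes (CPM, vertical axis from 0) in each library against the sum of 12 melanoma markers (CPM, log scale), the sum of 28 pan-T cell genes (CPM) and the GC index of the library (log2); colours are the 4 groups and numbers are replicates. The MHCII-deleted tumor libraries (28239 and 21472 CPM) have the highest melanoma and lowest pan-T cell sums. The library with the higher sum of that pair has the lower melanoma sum, the lower pan-T cell sum (8012 against 9489 CPM) and the lower GC index (0.0858 against 0.333).

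Genes that feed or serve the respiratory chain were read from lists of related pathways. Of 17 genes of pyruvate dehydrogenase and the citric acid cycle, 13 rose with the deletion in tumors and 0 fell (median 0.69). In the LN 0 were called, and the interaction called 13. Of all tested genes, 15.0% were called higher with the deletion in tumors and 4.14% in the interaction. Idh3a, a subunit of the NAD-dependent isocitrate dehydrogenase, was at 258, 261 and 271 CPM in control and 653 and 547 CPM in MHCII-deleted tumors (1.19 ± 0.10, adjusted p = 0.000156). Citrate synthase (Cs, 0.63), Ogdh of the 2-oxoglutarate dehydrogenase (0.65) and malate dehydrogenase (Mdh2, 0.69) rose as well.

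Of 15 genes of cytochrome c and coenzyme Q synthesis, 7 rose with the deletion in tumors and 1 fell. Coq4 (1.61 ± 0.25, adjusted p = 0.00155) and Coq7 (1.32 ± 0.24, adjusted p = 0.00368), both needed to make coenzyme Q, rose from 6.75, 9.41 and 8.77 CPM to 28.3 and 22.3 CPM and from 15.2, 15.2 and 23.8 CPM to 47.0 and 42.9 CPM. Coq10b, a coenzyme Q binding protein, was at 28.7 to 38.6 CPM in LN, 149.5 to 163 CPM in control tumors and 79.1 and 101 CPM in MHCII-deleted tumors, a fall of -0.79 ± 0.16 with the deletion (adjusted p = 0.0052). Of 13 carriers and uncoupling genes, 8 rose and 1 fell. Slc25a4, an ADP/ATP carrier that exchanges the product of complex V, was at 371, 476 and 562 CPM in control and 1414 and 1013 CPM in MHCII-deleted tumors (1.37 ± 0.19, adjusted p = 0.000876). Ucp2, the uncoupling-family carrier typical of lymphocytes, was at 2051 to 2364 CPM in LN, 1309, 1359 and 1630 CPM in control tumors and 710 and 806 CPM in MHCII-deleted tumors (-0.92 ± 0.12 with the deletion, adjusted p = 0.000722). Under pan-T cell scaling the values of Coq10b and Ucp2 turned to 0.28 and 0.16. Of 19 assembly factors of complex IV 3 rose and 2 fell, and of 13 for complexes II, III and V 4 rose and 2 fell. These counts stand beside 15.0% of all tested genes called higher and 13.7% lower. Cox15, which makes heme a for complex IV, rose from 59.9 to 68.8 CPM in control tumors to 118 and 94.4 CPM (0.70 ± 0.14, adjusted p = 0.00495).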

How the data were processed

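RNA of Tregs in 10 libraries was measured by sequencing (SMARTer Ultra Low and Nextera XT kits, 50-base single reads, per the labels' protocols). The authors deposited raw read counts per gene, 1 table for all libraries. CASAVA 1.8.2, STAR 2.4, featureCounts 1.4.6 and the GRCm38 build are named in the submitters' processing notes. The strand setting, the annotation release and the handling of reads that map to several places are not given in the sources used here, so counts of genes that share sequence are uncertain.

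Members were found by the symbol rule among protein-coding genes, and split into complexes by a list of textbook subunits. The members and the lists were chosen with earlier results of these data known. Counts were filtered with edgeR's filterByExpr (minimum count 10), scaled by TMM and tested with edgeR 4.0.16 (quasi-likelihood test, all 10 libraries in 1 fit of 4 groups, R 4.3.3). P-values were adjusted by Benjamini-Hochberg over all 13920 tested genes. SD is between libraries and SE is from the fitted model. A count of 0 allows up to 3 counts. The index of GC-rich genes compares genes that hold a 100-base stretch above 75% GC with the other genes in log2 CPM (prior count 2). Sequence sharing was computed over 50-base stretches of the transcripts. Promoter sequences are from RefSeq (GRCm38.p6), and the NRF1 and YY1 letters were each shortened by 1 base after a first search.

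Genes were named by rule: the 2 most abundant of each class, up to 3 called genes per direction and comparison (ranked by fold, with a group mean of 10 CPM or more), and a list of core subunits and isoform genes. From the pathway lists the 3 most abundant genes and the 2 with the lowest p were named. Some genes that the rule names are not reported here. Other named genes were chosen after their values were seen. Alternatives were DESeq2 1.42.0, limma-voom (limma 3.58.1), DESeq2-type size factors, scaling to pan-T cell genes, no count filter, only the groups compared, a replicate block, the GC index as a covariate, and leaving out each library. The scripts were tested on simulated data.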

Additional observations from a re-analysis of the deposited data

Results flagged for a closer look

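In 22 genes the effect of the deletion in the tumor differed from that in the LN by the interaction test of edgeR's quasi-likelihood fit. All 22 were also among the 44 genes called higher in the tumor, which share the same tumor libraries, so they are not separate evidence. In complex I the difference (tumor minus LN, log2) was 1.32 for Ndufs1, 0.89 for Ndufv1 and 0.80 for Ndufv2 of the core. Among the accessory subunits it was 1.01 for Ndufa5, 0.69 for Ndufa9, 0.90 for Ndufa10, 0.87 for Ndufa12, 0.75 for Ndufb8 and 1.2 for Ndufb9. In complex II it was 0.69 for Sdhb and 0.94 for Sdhd. In complex III it was 1.07 for Cyc1, 0.51 for Uqcrc1 and 0.99 for Uqcrq. In complex IV it was 0.91 for Ndufa4. In complex V it was 0.52 for Atp5a1, 0.86 for Atp5b, 0.74 for Atp5c1, 0.65 for Atp5f1, 0.89 for Atp5g3 and 1.05 for Atp5o. The levels of Atp5o and Ndufa12 are uncertain because other genes share 41.6% and 17.7% of their 50-base stretches. No group has 4 or more libraries, so single libraries were not tested as outliers.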

How the results depend on the processing

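The number of genes called higher with the deletion in tumors (44) was 85 under pan-T cell scaling and 14 with only the groups compared, and 16 to 54 when 1 library was left out. The 1 gene called lower was 0 under pan-T cell scaling, limma-voom and the GC covariate, and 0 to 1 when 1 library was left out. In the LN, 0 genes were called in either direction under every alternative run. Between tissues in control mice, 29 higher became 15 to 37 when 1 library was left out, and the 1 lower became 0 under pan-T cell scaling and the GC covariate, and 0 to 1 without 1 library. In MHCII-deleted mice the 1 lower became 0 under pan-T cell scaling and with only the groups compared, and 0 to 1 without 1 library, while the 68 higher stayed within 1.5 times (51 to 74 without 1 library). The 22 genes of the interaction were 84 under pan-T cell scaling, 44 with DESeq2, 11 with the GC covariate and 5 to 49 without 1 library. Calls over all genes shifted as well. With only the groups compared, 2092 genes called higher with the deletion in tumors became 1142. In the interaction, 576 became 1260 with DESeq2 and 372 with the GC covariate. The cause of these shifts was not tested, beyond the fewer libraries that some alternatives hold.

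Among values called with or without the alternative, signs turned only under pan-T cell scaling, which moves the median of all genes up in MHCII-deleted tumors. Values under it were 0.78, 0.68 and 0.82 for Cox7a2l in the tumor deletion effect, the tissue effect of MHCII-deleted mice and the interaction, and 0.57, 1.11 and 0.72 for Ndufa13. In the tumor deletion effect they were 1.09 for Coa4, 1.10 for Cox17, 0.82 for Cox18, 0.57 for Sdhaf1, 0.74 for Sdhaf2, 0.48 for Uqcc3, 0.28 for Coq10b, 1.05 for Coq8a, 0.77 for Hccs, 0.16 for Ucp2, 0.72 for Polrmt, 0.98 for Tfam, 0.12 for Gabpb1, 0.90 for Hcfc1, 0.69 for Nrf1 and 1.04 for Yy1. Under the other alternatives, 4397 values of single genes held 279 lost calls, 47 gained calls and 0 turned signs among called values. Signs turned in 113 values called neither way, 45 of them with the GC covariate. That covariate also turned the LN median from -0.14 to 0.32, with 81 of 92 values above 0 against 7 without it.

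The replicate numbers are shared between groups. Deviations from the group mean correlated weakly between same-numbered LN and tumor libraries (r = 0.02, 0.038 and 0.046 in control and 0.035 in MHCII-deleted mice). Differently numbered pairs of control mice were at -0.034 to -0.003. With 2 libraries per group, both pairs of MHCII-deleted mice give the same value by construction. Deviations within a group depend on each other, so these values cannot decide whether equal numbers mean the same animal. With the replicate block, 39 genes were called higher in the tumor deletion comparison and 24 in the interaction. With 2 MHCII-deleted libraries per tissue, leaving 1 out assumes that the other varies like the remaining groups, and genes at a few counts cannot show small differences at this depth.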

Other observations

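Of 13 known regulators of nuclear genes for mitochondrial proteins, 1 rose and 2 fell with the deletion in tumors (edgeR), beside 15.0% of all tested genes called higher and 13.7% lower. Ppargc1a, the coactivator PGC-1alpha, was at 0.0809 to 0.398 CPM in the 5 LN libraries, at 38.1, 48.3 and 41.2 CPM in control tumors and at 241 and 184 CPM in MHCII-deleted tumors. The tissues and the tumor groups were wide apart, and the rise with the deletion was 2.32 ± 0.23 (log2, SE, adjusted p = 0.000207). Melanocyte-lineage cells are known to express Ppargc1a, and the melanoma marker sum was also highest in the MHCII-deleted tumor libraries; its part in this value was not tested. Gabpb1, a subunit of the ETS factor GABP, went the other way. It was at 97.1 to 115 CPM in LN, 207, 197 and 179 CPM in control tumors and 97.0 and 101 CPM in MHCII-deleted tumors (-0.97 ± 0.10, adjusted p = 0.000276), a sign that turned under pan-T cell scaling (0.12). Nrf1, which binds the NRF1 letters searched above, was at 114 to 132 CPM in control tumors and 88.7 and 93.5 CPM in MHCII-deleted tumors (-0.40 ± 0.12, adjusted p = 0.0357). Its call was lost with limma-voom and 7 other alternatives, and its sign turned to 0.69 under pan-T cell scaling.

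Of 12 genes that copy and transcribe the mitochondrial genome, 6 were lower and 1 higher in tumor than in LN of control mice, and 4 rose and 1 fell with the deletion in tumors. Of all tested genes, 22.8% were higher and 16.1% lower in the first comparison, and 15.0% higher and 13.7% lower in the second. Twnk, the mitochondrial DNA helicase, was at 21.6 to 32.0 CPM in LN, 14.7, 12.5 and 10.5 CPM in control tumors and 34.7 and 24.2 CPM in MHCII-deleted tumors (1.22 ± 0.24, adjusted p = 0.00477). Tefm, a mitochondrial transcription elongation factor, rose with the deletion by 1.04 ± 0.22 (adjusted p = 0.00663), a call lost with only the tumor libraries (adjusted p = 0.0596). Tfam, which packages and transcribes mitochondrial DNA, was at 92.0 to 113 CPM in LN and at 71.0, 56.8 and 37.5 CPM in control tumors (-0.94 ± 0.20, adjusted p = 0.00446). Polg2, the accessory subunit of the mitochondrial DNA polymerase, was at 6.04 to 9.02 CPM in LN, 33.5, 37.4 and 36.4 CPM in control tumors and 12.3 and 20.1 CPM in MHCII-deleted tumors (-1.14 ± 0.26 with the deletion, adjusted p = 0.00997). That call was lost without the first MHCII-deleted tumor library (adjusted p = 0.0629). The table holds 0 genes encoded by the mitochondrial genome itself, so their expression was not analysed here.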
